A study of Sus scrofa with 12 samples.

Results

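MFAP5, MFAP2, FBLN1 and DPT, 4 genes of the microfibril and elastic fibre matrix, were followed in valvular interstitial cells, which resemble fibroblasts and make the matrix of the heart valve leaflet. The genes were chosen with earlier results of these data known, and their probe sets by symbol alone. Every probe set whose single gene symbol was one of these was used, which gave 1 probe set for each gene and 4 genes of the 6014 that could be tested. All of the 4 passed the filter on low values, and each lay above the level of the reporter control probe sets on all 12 arrays.

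The cells came from adult pig aortic valves, were released by collagenase II digestion and were profiled on Affymetrix porcine arrays, which read the 3′ end of each transcript. Each group held 3 biological replicates. The untreated P2 cells had gone through 2 passages and grew on tissue culture plastic in low serum. Other P2 cells received 5 ng/ml of porcine TGF-β1, for 8 h or for 24 h, and all P2 cells were collected on day 3 of culture. The P0 cells were freshly isolated, without culture or treatment. The labels do not say which P2 and P0 replicates came from the same animals, or how many valves went into 1 replicate.

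Microfibrils are bundles of fibrillin that act as a scaffold for elastin and hold latent TGF-β in the matrix. MFAP2 and MFAP5 encode the small microfibril-associated glycoproteins, which bind fibrillin along the microfibril. FBLN1 encodes fibulin-1, a calcium-binding glycoprotein of elastic fibres and basement membranes that binds fibronectin and the proteoglycan versican. DPT encodes dermatopontin, a small matrix protein that binds decorin and organises collagen fibrils. In the aortic valve, elastic fibres let the leaflet recoil at each beat.

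Values are deposited log2 expression values, so a difference of 1 is a 2-fold difference. Differences were tested with limma, with p-values adjusted by the Benjamini-Hochberg method over all 17638 probe sets tested, and a difference was called at an adjusted p under 0.05. Levels are not compared between genes, because probe sets differ in brightness. With 3 arrays against 3 the smallest two-sided p of an exact permutation test is 0.1, so tests rest on the spread that limma shares across probe sets. Each array had 16564 to 17247 probe sets over log2 4, and arrays of the same group correlated at 0.982 to 0.994. All 9 tested markers of valve interstitial cells or fibroblasts had means above the control level of 4.58 in every group. In untreated P2 cells 5 of them were called lower than in P0 cells, 1 was called higher, S100A4 by 5.10 on the log2 scale, and 3 did not pass. Those called lower were THY1 by -1.89, DCN by -1.64, POSTN by -1.21, LUM by -0.50 and COL1A2 by -0.44. The COL1A2 groups overlapped, and its other probe set was called higher. The log2 of the summed level of the 9 markers was 16.36 to 16.58 in untreated P2 cells, 16.32 to 16.44 at 8 h, 16.31 to 16.37 at 24 h and 16.98 to 17.04 in P0 cells.

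All of the 4 genes were lower in untreated P2 cells than in P0 cells, by 3.47-fold to 17.2-fold. The fold was largest for DPT and smallest for MFAP2, and differences between the genes were not tested. No untreated P2 array overlapped any P0 array for any of them. Of all probe sets tested, 25.8% were called lower in P2 cells, and 65.1% had groups that did not overlap. The median log2 difference of the 4 genes was -3.15, against 0.07 over all probe sets tested.

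The microfibril glycoproteins differed in how evenly they fell. MFAP5 stood at 7.10, 7.43 and 7.39 in untreated P2 replicates 1, 2 and 3, against 10.64, 10.52 and 10.82 in the P0 replicates. The untreated P2 arrays lay close together and far under the P0 arrays. The log2 difference was -3.36 ± 0.148 (SE, n = 3 each; adjusted p = 5.18e-09), a 10.3-fold lower level, and 273 of the probe sets tested fell further. MFAP2 stood at 6.62, 6.51 and 7.86 in untreated P2 replicates 1, 2 and 3, against 8.81, 8.69 and 8.86 in the P0 replicates. Untreated P2 replicate 3 lay well above replicates 1 and 2, though still under every P0 array. The log2 difference was -1.79 ± 0.435 (SE, n = 3 each; adjusted p = 0.00355), with a 95% interval of -2.74 to -0.84. Without the P2 arrays of replicate 3, an alternative chosen after seeing the data, the MFAP2 difference was -2.22 (adjusted p = 1.02e-06). Those arrays held the highest MFAP2 values among P2 arrays, so the larger difference and smaller p follow from leaving them out.

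FBLN1 stood at 10.73, 10.22 and 10.58 in the untreated P2 replicates, against 13.23, 13.51 and 13.63 in the P0 replicates. Its log2 difference was -2.95 ± 0.183 (SE, n = 3 each; adjusted p = 7.57e-08), a 7.70-fold lower level. DPT stood at 10.83, 9.88 and 10.47 in the untreated P2 replicates, against 14.57, 14.46 and 14.47 in the P0 replicates. The P0 arrays had an SD of 0.0584, and the untreated P2 arrays had an SD of 0.479. The DPT difference was -4.11 ± 0.268 (SE, n = 3 each; adjusted p = 1.08e-07), a 17.2-fold lower level, and 144 probe sets fell further.

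Markers of other cell types moved between these groups as well. All 10 tested macrophage markers were lower in untreated P2 cells than in P0 cells. The log2 of their summed level was 9.94 to 10.40 in untreated P2 cells, 9.70 to 10.23 at 8 h, 9.50 to 9.93 at 24 h and 13.28 to 13.85 in P0 cells. Of the 12 tested endothelial markers, 1 was lower and 0 were higher in untreated P2 cells. The 95% intervals of the log2 difference were wide for some, such as -1.38 to 3.78 for CDH5 and -4.11 to 0.83 for TEK. They were narrower for others, such as -0.29 to 0.40 for ESAM. The endothelial marker VWF was under the control level in every group, and TIE1 was also under it at 24 h. The single tested lymphocyte marker, CD3G, was under the control level in every group. Of the smooth muscle and cardiac muscle markers, 4 could be tested, of which 3, SMTN, ACTC1 and MYH7, were called higher in untreated P2 cells. ACTC1 and MYH7 were under the control level in P0 cells, so ACTC1 was at least 4.14-fold and MYH7 at least 1.02-fold higher, and DES was under it in untreated P2 cells. The log2 of their summed level was 11.21 to 11.45 in untreated P2 cells, against 10.05 to 10.22 in P0 cells. The single tested erythrocyte marker, HBB, was lower in untreated P2 cells by -0.77 ± 0.119 (SE, n = 3 each; adjusted p = 0.000136). Of the 2 tested adipocyte markers 0 were called in limma, and 0 had an unadjusted p under 0.05. The part of these cell types in the differences of the 4 genes was not tested. In bulk RNA, fewer cells that express a gene and less RNA of it per cell cannot be told apart.

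**Figure D1:**
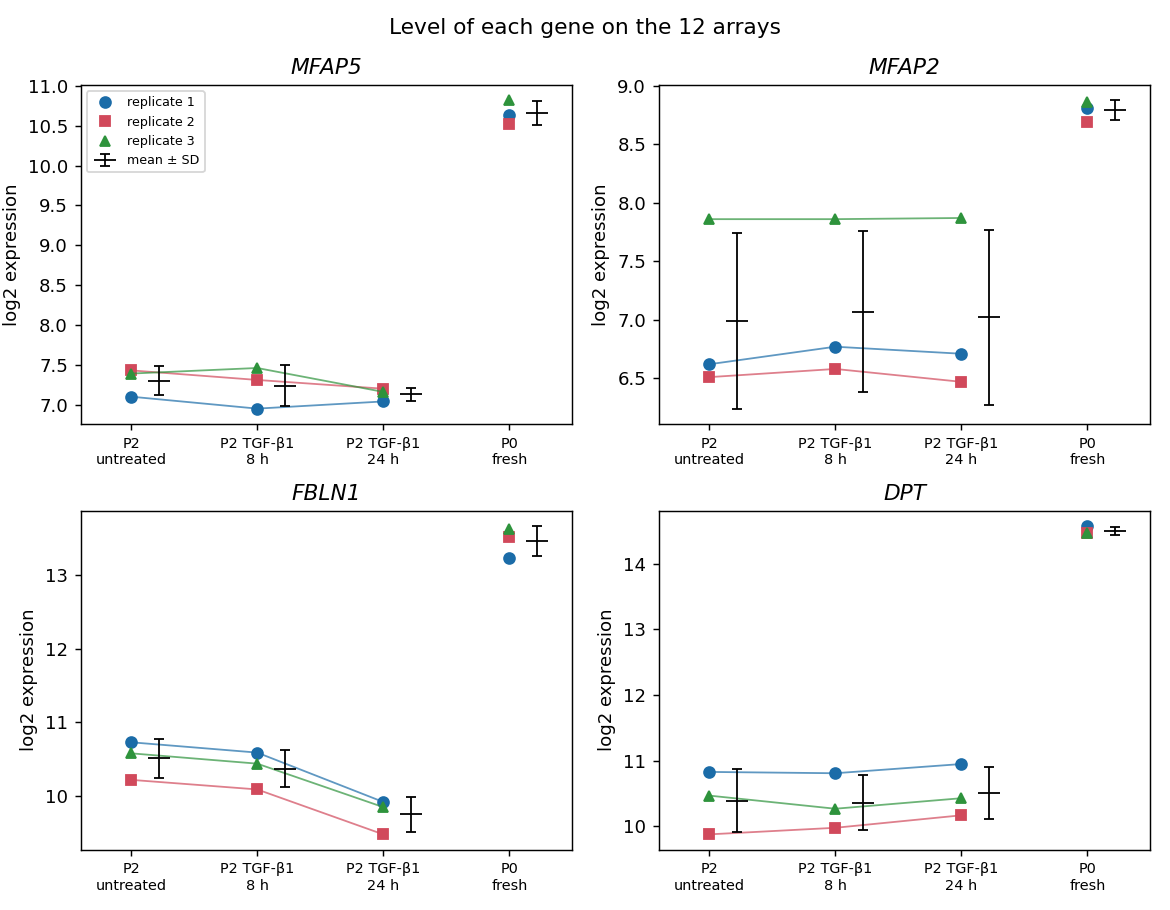
The log2 expression of each gene (y axis) is plotted for the 12 arrays, grouped as untreated P2, P2 with TGF-β1 for 8 h, P2 with TGF-β1 for 24 h and P0. Marks show replicate numbers and black bars show the mean ± SD (n = 3). The P0 arrays lie above all P2 arrays for every gene, and the FBLN1 arrays at 24 h, at 9.48 to 9.92, lie under all others.

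TGF-β1, a cytokine known to drive fibroblasts towards matrix-producing myofibroblasts, changed 1 of the 4 genes under this test. FBLN1 was lower after 24 h than in untreated P2 cells, and no difference passed the test for MFAP5, MFAP2 or DPT at either time. Of a list of known TGF-β targets, 4 of 8 tested rose at 8 h and 4 of 8 at 24 h. At both times these were PMEPA1, SNAI1, LIF and BHLHE40, which were called lower in untreated P2 cells than in P0 cells. Of all 6014 genes, 2.74% were called higher at 8 h and 4.42% at 24 h. The list was chosen with earlier results of these data known, so it is no independent check of the treatment. ACTA2, TAGLN, CNN1 and TPM1, called higher in untreated P2 cells than in P0 cells, were called at neither time. PMEPA1, whose protein dampens TGF-β signalling, was higher by 2.64 ± 0.247 at 8 h (adjusted p = 0.000564) and by 2.70 ± 0.247 at 24 h (adjusted p = 0.000147), on the log2 scale (SE, n = 3 each).

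At 8 h, 0 of the 4 genes were called in limma, and 0 had an unadjusted p under 0.05. Over all probe sets tested, 5.07% were called in either direction, and 25.5% had groups that did not overlap, as 0 of the 4 genes did. MFAP5 stood at 6.95, 7.31 and 7.46 at 8 h and differed from untreated cells by -0.06 ± 0.148 (adjusted p = 0.901). MFAP2 stood at 6.77, 6.58 and 7.86 at 8 h, a difference of 0.08 ± 0.435 (adjusted p = 0.968). The 8 h arrays of both genes overlapped the untreated ones. FBLN1 stood at 10.59, 10.09 and 10.44 at 8 h, a difference of -0.14 ± 0.183 (adjusted p = 0.799). DPT stood at 10.81, 9.98 and 10.27 at 8 h, a difference of -0.04 ± 0.268 (adjusted p = 0.976). The 95% interval of the log2 difference was -0.39 to 0.26 for MFAP5, -0.54 to 0.26 for FBLN1, -0.62 to 0.55 for DPT and -0.87 to 1.03 for MFAP2. With replicate number as a block over the 9 P2 arrays, whose basis is given with FBLN1, the MFAP2 interval was -0.11 to 0.26 (SE 0.0789, adjusted p = 0.579).

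At 24 h, FBLN1 stood at 9.92, 9.48 and 9.85, against 10.73, 10.22 and 10.58 in untreated P2 cells. Every 24 h array lay under every untreated array. The log2 difference was -0.76 ± 0.183 (SE, n = 3 each; adjusted p = 0.0241; 95% interval -1.16 to -0.36), a 1.70-fold lower level, and 601 probe sets fell further. Over all probe sets tested, 4.22% were called lower at 24 h and 25.3% had groups that did not overlap. The call was lost when 1 array was left out for 3 of the 6 arrays. Its adjusted p was 0.0957 without untreated P2 replicate 1, 0.0876 without untreated P2 replicate 3 and 0.0825 without replicate 2 at 24 h. Fitted on these groups alone, the difference had an adjusted p of 0.0738. Of the 10 macrophage markers, 1, CD14, was lower and 0 were higher at 24 h, where 5.67% of the 6014 genes were called lower. The log2 of the summed level of the 10 markers was 9.50 to 9.93 at 24 h, against 9.94 to 10.40 in untreated cells. Their part in the FBLN1 difference was not tested.

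P2 arrays with the same replicate number deviated together from their group means across probe sets, so the FBLN1 values were also read within replicates. The 24 h array minus the untreated array of the same number was -0.81, -0.74 and -0.74 for FBLN1. The 8 h array minus the untreated array was -0.14, -0.12 and -0.14. With replicate number as a block over the 9 P2 arrays, the 24 h difference from untreated cells had an SE of 0.0749 and an adjusted p of 0.000773, and the 8 h difference an adjusted p of 0.292.

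The later time was also set against the earlier one. FBLN1 was lower at 24 h than at 8 h by -0.63 ± 0.183 (SE, n = 3 each; unadjusted p = 0.00513), with no overlap between the arrays, as in 13.7% of all probe sets, but its adjusted p of 0.27 did not pass the test. Under the replicate block the same difference of -0.63 had an SE of 0.0749 and an adjusted p of 0.0117. Without the block 0.232% of probe sets were called between these times in either direction, and with it 2.44%. The differences of MFAP5, MFAP2 and DPT between the times lay between -0.11 and 0.16, with adjusted p-values of 0.914 to 0.992.

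MFAP5 stood at 7.04, 7.20 and 7.16 at 24 h, a difference of -0.17 ± 0.148 from untreated cells (adjusted p = 0.554). Its 24 h arrays overlapped the untreated ones, and within replicates it differed by -0.05, -0.23 and -0.24. MFAP2 stood at 6.71, 6.47 and 7.87 at 24 h, a difference of 0.02 ± 0.435 (adjusted p = 0.987). Within replicates its 24 h arrays differed from the untreated ones by 0.09, -0.04 and 0.01, and the SE of the difference was 0.0789 with the replicate block. DPT stood at 10.95, 10.17 and 10.43 at 24 h, a difference of 0.12 ± 0.268 (adjusted p = 0.853). Within replicates it differed by 0.12, 0.29 and -0.04. With the replicate block, 0 of these 3 genes were called at either time in limma, and 0 had an unadjusted p under 0.05. Their smallest adjusted p at 24 h was 0.251, for MFAP5.

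**Figure D2:**
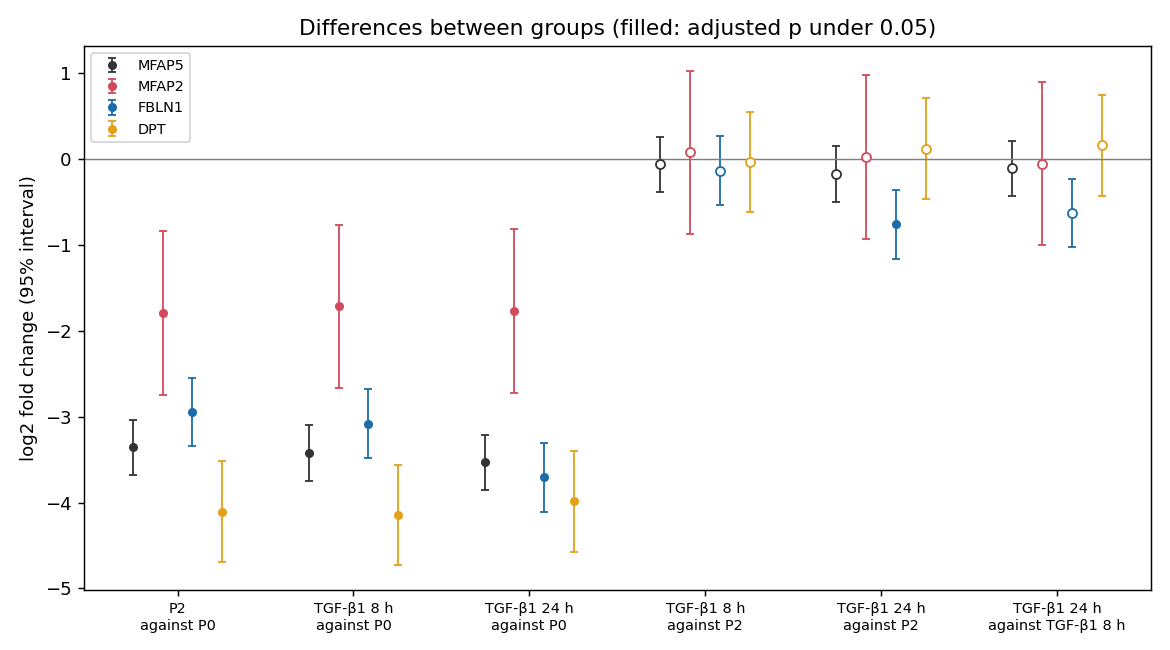
Log2 fold changes with 95% intervals (y axis) are shown for each gene in 6 comparisons between groups (x axis), with filled points at an adjusted p under 0.05 in limma. The comparisons with P0 are filled for all 4 genes, and of the comparisons among P2 cells only the FBLN1 difference of -0.76 between 24 h and untreated cells is filled.

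Treated cells were also set against P0 cells, which orders the levels over all groups. All 4 genes were called lower than P0 at 8 h and at 24 h, where 26.7% of probe sets were called lower at 8 h and 26.9% at 24 h. Their treated arrays did not overlap the P0 arrays, which held for 67.8% of probe sets at 8 h and 65.6% at 24 h. These comparisons share the P0 arrays with the one above. MFAP5 averaged 7.30 ± 0.182 in untreated P2 cells, 7.24 ± 0.262 at 8 h, 7.13 ± 0.0797 at 24 h and 10.66 ± 0.152 in P0 cells (SD, n = 3 each), and was 10.7-fold lower at 8 h and 11.6-fold lower at 24 h than in P0. MFAP2 averaged 6.99 ± 0.749 in untreated P2 cells, 7.07 ± 0.691 at 8 h, 7.02 ± 0.749 at 24 h and 8.79 ± 0.0852 in P0 cells, and was 3.28-fold lower at 8 h and 3.41-fold lower at 24 h than in P0. For both genes the P2 groups lay within the spread of their arrays, and P0 was the only group apart.

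FBLN1 averaged 10.51 ± 0.264 in untreated P2 cells, 10.37 ± 0.253 at 8 h, 9.75 ± 0.237 at 24 h and 13.46 ± 0.204 in P0 cells (SD, n = 3 each). It was 8.46-fold lower at 8 h and 13.1-fold lower at 24 h than in P0. By mean its order was P0, untreated P2, 8 h and 24 h, in which untreated P2 and 8 h did not differ beyond their spread. The difference between 8 h and 24 h was called only with the replicate block. DPT averaged 10.39 ± 0.479 in untreated P2 cells, 10.36 ± 0.420 at 8 h, 10.51 ± 0.398 at 24 h and 14.50 ± 0.0584 in P0 cells, and was 17.7-fold lower at 8 h and 15.8-fold lower at 24 h than in P0. Its P2 groups did not differ beyond their spread.

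Among P2 arrays, the levels of MFAP2, DPT and FBLN1 differed by replicate number. This was tested after the values were seen, as an F test of replicate number in limma over the 9 P2 arrays, in which 12.3% of probe sets were called. MFAP2 averaged 6.70 over the P2 arrays of replicate 1, 6.52 over those of replicate 2 and 7.86 over those of replicate 3 (adjusted p = 0.000264). DPT averaged 10.86 in replicate 1, 10.01 in replicate 2 and 10.39 in replicate 3 (adjusted p = 0.00388). FBLN1 averaged 10.41, 9.93 and 10.29 (adjusted p = 0.0147), and MFAP5 averaged 7.03, 7.31 and 7.34 (adjusted p = 0.106). MFAP2 was thus high in replicate 3, DPT and FBLN1 were low in replicate 2, and MFAP5 did not pass the test.

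The summed level of the endothelial markers also split by replicate number. The log2 of their summed level was 12.16, 12.6 and 10.24 in untreated P2 replicates 1, 2 and 3, 12.02, 12.39 and 10.68 at 8 h, 11.8, 11.93 and 10.81 at 24 h, and 11.54, 11.92 and 12.01 in the P0 replicates. PECAM1, CDH5, TEK, TIE1, CLDN5, EGFL7, ECSCR, ICAM2 and NOS3 were each lowest in replicate 3 in every P2 group. VWF, ESAM and ERG were not. ERG shared the split in untreated P2 cells, at 8.67, 8.87 and 7.71 in replicates 1, 2 and 3, but not in treated cells. It stood at 9.6, 9.37 and 9.59 in replicates 1, 2 and 3 at 8 h, and at 10, 9.58 and 10.13 at 24 h. In limma ERG was called higher than in untreated cells at 8 h (adjusted p = 0.0303) and at 24 h (adjusted p = 0.00487). The P2 arrays of replicate 3, where MFAP2 was highest, had the lowest summed endothelial marker level of all arrays. The part of endothelial cells in the MFAP2 level was not tested. Without these arrays the MFAP2 differences from P0 were -2.11 at 8 h (adjusted p = 1.23e-06) and -2.20 at 24 h (adjusted p = 9.66e-07). For MFAP2 the larger differences and smaller p-values follow from that choice of arrays. MFAP5, FBLN1 and DPT then differed by -3.40, -2.98 and -4.14 between untreated P2 and P0. The FBLN1 difference between 24 h and untreated cells was then -0.78, with an adjusted p of 0.124.

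**Figure D3:**
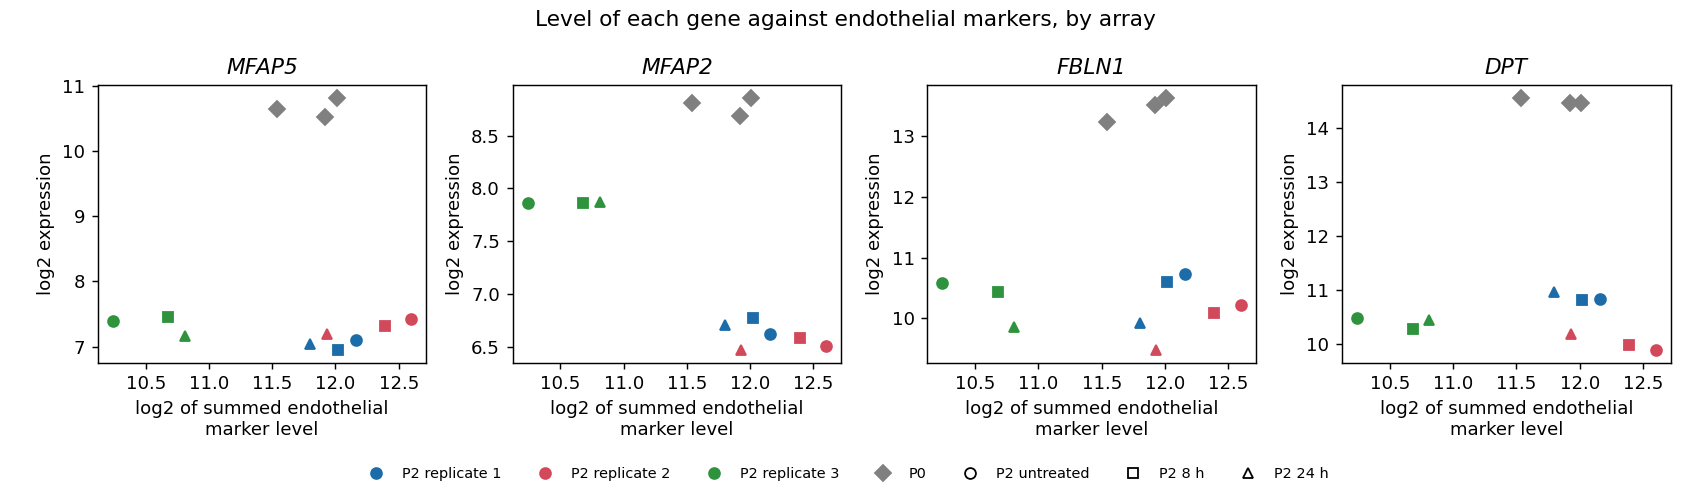
The log2 expression of each gene (y axis) is plotted against the log2 of the summed endothelial marker level (x axis) for 12 arrays, coloured by P2 replicate number, with P0 arrays as grey diamonds. The 3 P2 arrays of replicate 3 lie at the left, at 10.24 to 10.81, and carry the highest MFAP2 values among P2 arrays, 7.86 to 7.87.

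Other genes of the same matrix were taken from lists by role. Counts in the lists are read against 24.2% of the 6014 genes called lower and 42.1% called higher in untreated P2 cells than in P0. Of the microfibril scaffold and its binding proteins, 3 of 17 listed genes could be tested, of which 1 rose, 1 fell and 1 did not pass. EMILIN2, an elastic fibre glycoprotein, stood at 9.01, 8.88 and 8.01 in untreated P2 cells, against 10.15, 10.41 and 10.2 in P0 cells, a difference of -1.63 ± 0.304 (SE, n = 3 each; adjusted p = 0.000586). FBN1, which encodes the fibrillin of the microfibril core, stood at 12.99, 13.14 and 13.3 in untreated P2 cells, against 12.82, 12.95 and 12.86 in P0 cells. Its difference of 0.27 ± 0.138 did not pass (adjusted p = 0.117; 95% interval -0.03 to 0.57). MFAP3, a further microfibril-associated gene, rose by 0.49 ± 0.156 (adjusted p = 0.0165), a call that was lost without untreated P2 replicate 1 or without P0 replicate 1 or 3, with adjusted p-values up to 0.0682.

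Of elastin, its assembly factors and cross-linking enzymes, 4 of 11 listed genes could be tested, of which 1 rose, 0 fell and 3 did not pass. LOXL4, a lysyl oxidase that cross-links elastin and collagen, stood at 10.5, 10.55 and 10.42 in untreated P2 cells, against 5.79, 5.67 and 6.03 in P0 cells, a difference of 4.66 ± 0.241 (SE, n = 3 each; adjusted p = 1.83e-08). Elastin itself, ELN, was not tested on a probe set with a single symbol. Of the elastin-degrading proteases and their inhibitors, 10 of 16 could be tested, of which 1 rose, 5 fell and 4 did not pass. TIMP3, a metalloprotease inhibitor held in the matrix, fell by 3.48 on the log2 scale (SE 0.569, adjusted p = 0.000206). MMP2, which cleaves elastin and gelatin, fell by 1.58 (SE 0.224, adjusted p = 6.82e-05), and SLPI, an inhibitor of leukocyte elastase, fell by 1.53 (SE 0.209, adjusted p = 4.79e-05). TIMP1, a soluble metalloprotease inhibitor, rose by 1.41 ± 0.178 (adjusted p = 2.51e-05).

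Read on 1 probe set a gene, the one of highest mean, the matrix partners of dermatopontin and fibulin-1 were mostly lower in untreated P2 cells. Of 12 tested genes (18 listed), 11 were called lower, 0 higher and 1 did not pass, with a median of -0.67. TNXB, a tenascin that binds collagen fibrils, stood at 6.45, 6.32 and 6.67 in untreated P2 cells, against 11.41, 12.01 and 11.43 in P0 cells. Its difference of -5.13 ± 0.190 (SE, n = 3 each; adjusted p = 1.43e-09) stood beside -4.11 for DPT. VCAN, the proteoglycan versican to which fibulin-1 binds, stood at 11.37, 11.83 and 11.7 in untreated P2 cells, against 14.16, 14.0 and 14.32 in P0 cells, a difference of -2.53 ± 0.197 (adjusted p = 4.79e-07). ACAN, the proteoglycan aggrecan, differed by -3.25 ± 0.551 (adjusted p = 0.000275). It stood at 4.79, 4.67 and 6.22 in untreated P2 replicates 1, 2 and 3, close to the control level of 4.58 in replicates 1 and 2. ADAMTS1, a protease that cleaves both proteoglycans and binds fibulin-1, differed by -2.70 ± 0.661 (adjusted p = 0.00376). Decorin, DCN, which was named after its values were seen because it binds dermatopontin, stood at 13.31, 13.19 and 13.52 in untreated P2 cells, against 15.03, 14.99 and 14.93 in P0 cells. Among the genes called lower, FN1, COL1A2 and LAMC1 had other probe sets that were called higher. These were 3 of 4 probe sets for LAMC1, 1 of 3 for FN1 and 1 of 2 for COL1A2. The direction of these genes thus depended on the probe set, and the COL1A2 groups overlapped.

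The list of cell-surface receptors for microfibril proteins also held a ligand, JAG1. Of this list, 9 of 14 genes could be tested, of which 4 rose, 2 fell and 3 did not pass in untreated P2 cells. ITGA8, an integrin chain that binds matrix proteins through their RGD motif, stood at 9.93, 9.59 and 10.21 in untreated P2 cells, against 4.52, 4.45 and 4.68 in P0 cells. The mean of P0 was under the control level, so the level was at least 40.1-fold higher (adjusted p = 1.44e-09). ITGB1, the common integrin beta chain, rose by 1.13 ± 0.120 (adjusted p = 6.16e-06). JAG1, a Notch ligand that MFAP5 is known to bind, fell by 1.34 on the log2 scale (SE 0.120, adjusted p = 1.44e-06), and ITGB5 fell by 1.15 (SE 0.217, adjusted p = 0.000643).

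The same lists were read after TGF-β1. At 8 h 2.74% of the 6014 genes were called higher and 2.84% lower, and at 24 h 4.42% higher and 5.67% lower. In the scaffold list, 0 of 3 genes were called in limma at either time, with 0 at 8 h and 3 at 24 h at an unadjusted p under 0.05. With the replicate block, EMILIN2 was called lower at 8 h (adjusted p = 0.011) and at 24 h (adjusted p = 0.000979), and FBN1 and MFAP3 were called higher at 24 h. FBN1 stood at 13.54, 13.26 and 13.69 at 24 h, against 12.99, 13.14 and 13.3 in untreated cells, a difference of 0.35 ± 0.138 (adjusted p = 0.146 without the block and 0.0466 with it).

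In the elastin list, 1 of 4 genes was called higher at each time and 0 lower, and with the block 2 were called higher at each time, LOX and LOXL1, and 1 lower at 24 h, EFEMP2. LOXL1, an oxidase that cross-links elastin, stood at 11.23, 11.2 and 11.28 at 8 h, against 10.66, 10.78 and 10.85 in untreated cells, a difference of 0.47 ± 0.110 (adjusted p = 0.0292). LOX, the lysyl oxidase, stood at 12.88, 12.82 and 12.59 at 24 h, against 12.33, 12.24 and 11.92 in untreated cells, a difference of 0.60 ± 0.159 (adjusted p = 0.0394). In both the groups did not overlap. The LOXL1 call was lost in 6 of 6 fits that left out 1 array, with adjusted p-values up to 0.108, and the LOX call in 5 of 6, all but the fit without replicate 3 at 24 h, with adjusted p-values up to 0.154.

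Among the proteases and inhibitors, SLPI was the 1 gene of 10 called at each time. It stood at 12.05, 12.37 and 12.61 at 8 h and 12.44, 12.42 and 11.77 at 24 h, against 11.06, 11.64 and 11.15 in untreated cells. The differences were 1.06 ± 0.209 at 8 h (adjusted p = 0.0146) and 0.93 ± 0.209 at 24 h (adjusted p = 0.0181). These calls were lost without untreated replicate 1 or 3, without replicate 3 at 8 h, and without replicate 1 or 2 at 24 h, with adjusted p-values up to 0.0746. With the block 3 genes of this list, CTSB, TIMP2 and TIMP3, were also called lower at 24 h.

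Of the matrix partners, 0 of 12 were called in limma at 8 h, with 2 at an unadjusted p under 0.05, and at 24 h 2 were higher and 2 lower. FN1, which encodes the fibronectin that fibulin-1 binds, stood at 15.21, 15.2 and 15.07 at 24 h, against 14.55, 14.68 and 14.42 in untreated cells, a difference of 0.61 ± 0.112 (adjusted p = 0.00654). BGN, a proteoglycan related to decorin, was higher by 0.56 ± 0.104 (adjusted p = 0.00712). ADAMTS1 stood at 7.85, 7.5 and 8.46 at 24 h, against 10.7, 9.37 and 12.46 in untreated cells, a difference of -2.90 ± 0.661 (adjusted p = 0.019). COL3A1 was also called lower, by -1.14 ± 0.292 (adjusted p = 0.0329). It stood at 4.31, 4.74 and 5.31 at 24 h, against 5.79, 5.6 and 6.41 in untreated cells. At 24 h replicate 1 lay under the control level of 4.58 and replicate 2 close to it. Signal near that level limits the reading of the COL3A1 difference. The ADAMTS1 and COL3A1 calls were each lost without untreated replicate 1 or 3 or without replicate 1 or 2 at 24 h, with adjusted p-values up to 0.0661 for ADAMTS1 and 0.133 for COL3A1. Under the block 2 genes, ADAMTS1 and LAMC1, were called lower at 8 h, and 3 genes were called in each direction at 24 h, with COL1A2 added to the higher and DCN to the lower ones.

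In the receptor list, 2 of 9 genes were called higher at 8 h and 3 at 24 h, with 0 lower. ITGA5, the fibronectin receptor chain, stood at 10.22, 10.22 and 9.58 at 8 h and 10.89, 10.55 and 10.36 at 24 h, against 9.05, 9.39 and 7.89 in untreated cells. Its difference was 1.23 ± 0.320 at 8 h (adjusted p = 0.0485) and 1.82 ± 0.320 at 24 h (adjusted p = 0.00514), and the 8 h call was lost in 5 of 6 fits that left out 1 array, all but the one without untreated replicate 2, with adjusted p-values up to 0.164. JAG1 was higher by 0.75 ± 0.120 at 8 h (adjusted p = 0.00596) and by 0.58 ± 0.120 at 24 h (adjusted p = 0.0114). Without untreated replicate 1 the 24 h difference had an adjusted p of 0.0514. ITGAV was also called higher at 24 h, by 1.01 ± 0.275 (adjusted p = 0.043). That call was lost in 5 of 6 fits that left out 1 array, all but the one without replicate 3 at 24 h, with adjusted p-values up to 0.162. With the block 4 genes of this list were called higher at each time, ITGAV, ITGA5, JAG1 and ENG. Called lower were 1 at 8 h and 2 at 24 h, ITGA8 among them at both times.

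**Figure D4:**
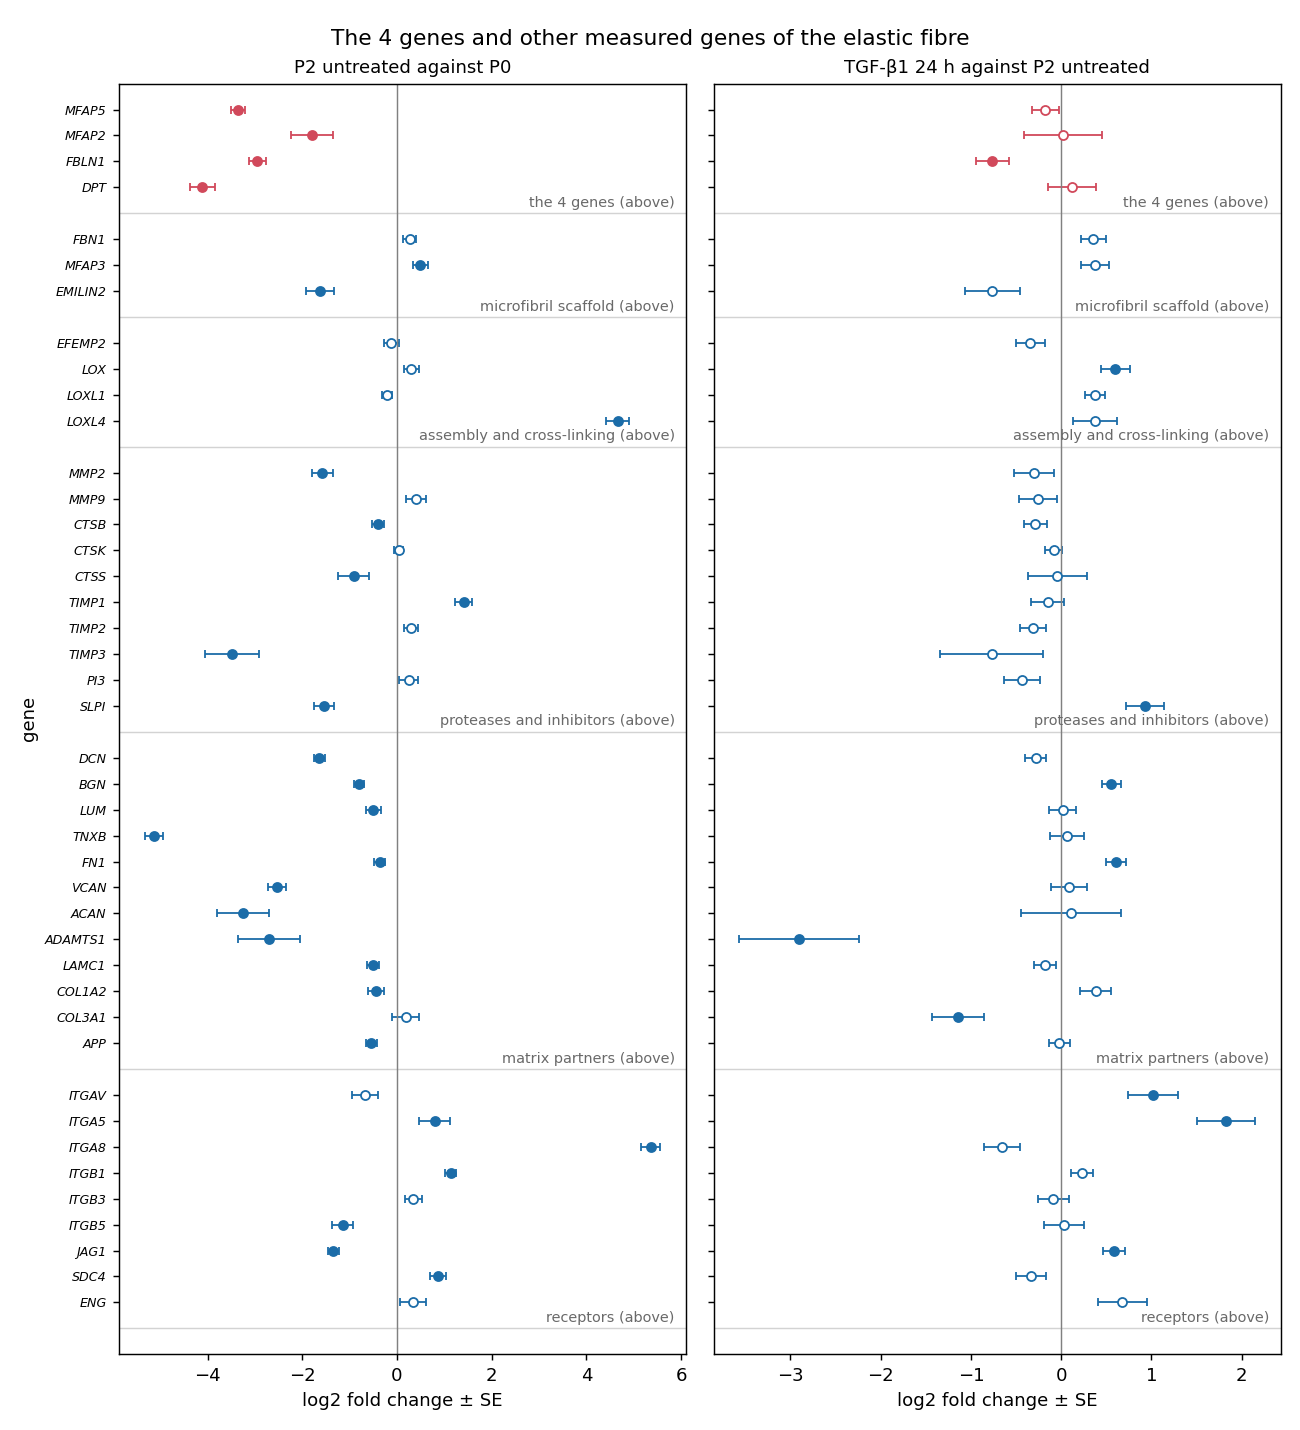
Log2 fold changes ± SE (x axis) of MFAP5, MFAP2, FBLN1, DPT and the tested genes of the 5 lists of related matrix genes (y axis) are shown for untreated P2 against P0 and for TGF-β1 at 24 h against untreated P2, with filled points at an adjusted p under 0.05 in limma. TNXB, at -5.13, lies further left than DPT, at -4.11, in the first panel, where the ITGA8 point is the measured difference, with P0 under the control level.

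The patterns of the 4 genes over the 12 arrays were compared with each other and with the 6013 other genes by the root mean square difference of log2 values, each centred on its own mean. MFAP5 and FBLN1 were the most alike of the 4, at 0.378, and DPT lay 0.521 from MFAP5 and 0.532 from FBLN1. MFAP2 lay 0.854 to 1.16 from the others. Among all genes FBLN1 ranked only 52nd in likeness to MFAP5, and MFAP5 ranked 35th in likeness to FBLN1. The likeness rests largely on the step between P2 and P0, which many genes share, and it is a description of these arrays. The most alike genes were picked on all 12 arrays. Differences they share at 24 h or by replicate number, and r over the P2 arrays, follow in part from that choice.

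The genes most like MFAP5 were HTRA4, a serine protease, at 0.182, PTGDS, a prostaglandin D synthase, at 0.198, and PIM2, a kinase, at 0.204. HTRA4 stood at 4.83 on 6 of the 9 P2 arrays, close to the control level of 4.58. Those most like FBLN1 were SERPING1, a complement inhibitor, at 0.144, FOLR2, a folate receptor carried by macrophages, at 0.169, and CYP27A1, a sterol hydroxylase, at 0.222. These 3 genes differed between 24 h and untreated cells by -0.78, -0.82 and -1.08, beside -0.76 for FBLN1, on the same arrays by which they were picked. Those most like DPT were MRAP2, a melanocortin receptor accessory protein, at 0.265, DNAJB1, a heat shock co-chaperone, at 0.299, and RARRES2, which encodes chemerin, at 0.305. Those most like MFAP2 were CRABP2, which carries retinoic acid, at 0.255, MMP2 at 0.323 and MX2, an interferon-induced GTPase, at 0.330. MX2 lay under the control level on some P2 arrays, such as untreated replicate 2 at 4.41. CRABP2 shared the split by replicate number, with 5.03, 4.8 and 6.1 in untreated P2 cells, 5.23, 4.9 and 5.76 at 8 h, 5.34, 4.88 and 6.3 at 24 h, and 7.34, 6.93 and 7.88 in P0 cells. Pearson r over the 12 arrays was 0.935 to 0.997 for these 12 genes with the gene each was most like, and all arrays share the same step between P2 and P0. Over the 9 P2 arrays alone r was 0.545 to 0.749 for the 3 genes like DPT, 0.552 to 0.776 for those like MFAP5, 0.778 to 0.951 for those like MFAP2 and 0.930 to 0.958 for those like FBLN1.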

How the data were processed

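Expression was measured on 12 porcine arrays, 3 in each of 4 groups. Values per probe set were deposited on the log2 scale by the authors. Per the submitters' processing notes they were made with GCRMA, version not given, and no further normalisation, scan date or batch is given in the sources used here. Array medians spanned 0.0787, and the values were not normalised again.

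Of 23999 probe sets, 64 reporter controls were left out, and 17638 with log2 over 4 in at least 3 arrays were tested. Of all probe sets, 10069 carried 1 symbol in the platform annotation, 198 several and 13732 none. Each gene took its tested probe set of highest mean, which left 6014 genes. A group mean under the reporter controls' 95th percentile of 4.58 gave a fold as a bound from that level.

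A linear model of the 4 group means over the 12 arrays was fitted in limma (version 3.58.1, under R version 4.3.3) with empirical Bayes moderation, two-sided tests and Benjamini-Hochberg adjustment at 0.05. The pipeline was tested on simulated data. P-values measure the spread between biological replicates as labelled, pooled over the 4 groups with the 12 arrays taken as independent. For MFAP2 this pooled unequal spreads, with an SD of 0.0852 in P0 cells and 0.749 in untreated P2 cells. Residuals of P2 arrays with the same number correlated at 0.348 to 0.679 over 9 pairs, and those with different numbers at -0.513 to 0.0796 over 18 pairs, so a fit with the number as a block over the 9 P2 arrays was added. P0 and P2 arrays of the same number correlated at -0.0916 to 0.0158, so P0 was not paired. The tests against P0 thus took P2 arrays of the same number as independent, though these arrays deviated together.

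The members and gene lists were chosen with earlier results of these data known. Genes named from a list were at most 4 called per comparison with the largest change, or the 2 with the smallest p where none was called, and for each member the 3 genes most like it. Alternatives were no filter, a filter at log2 6, quantile normalisation, median centring, values raised to the control level, trend and robust moderation, only the 2 groups compared, the replicate block, all probe sets of a gene, and leaving out each array.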

Additional observations from a re-analysis of the deposited data

Results flagged for a closer look

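The effect of TGF-β1 on FBLN1 was called different between the times only with the replicate block, a fit added after residuals correlated by number. With replicate number as a block over the 9 P2 arrays, the 24 h effect minus the 8 h effect was -0.63 on the log2 scale (SE 0.0749, limma adjusted p = 0.0117), and it was negative in 3 of 3 replicates, at -0.67, -0.62 and -0.60. Without the block its adjusted p was 0.27.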

How the results depend on the processing

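Under every alternative run, MFAP5, MFAP2, FBLN1 and DPT kept their call and direction in untreated P2 cells, at 8 h and at 24 h against P0. Leaving out 1 array, the MFAP2 difference between untreated P2 and P0 ran from -2.22 to -1.55 (adjusted p 0.000779 to 0.0176). The FBLN1 difference at 24 h against untreated cells ran from -0.91 to -0.63 (adjusted p 0.0159 to 0.0957). It was -0.76 (adjusted p = 0.0738) on the 2 groups alone and -0.78 (adjusted p = 0.124) without the P2 arrays numbered 3, chosen after seeing the data. The FBLN1 difference between 24 h and 8 h was -0.63 with the replicate block and called (adjusted p = 0.0117), and the block changed no other call of the 4 genes. The cause of these changes was not tested. Differences that were not called turned sign in some fits. DPT at 8 h was 0.0092 under median centring and 0.042 without the P2 arrays numbered 3. Leaving out 1 array, values at 8 h against untreated ran from -0.17 to 0.081 for MFAP5, -0.32 to 0.51 for MFAP2, -0.28 to 0.0045 for FBLN1 and -0.29 to 0.18 for DPT. At 24 h against untreated they ran from -0.41 to 0.45 for MFAP2 and -0.14 to 0.34 for DPT, and at 24 h against 8 h from -0.25 to 0.00076 for MFAP5, -0.48 to 0.34 for MFAP2 and -0.060 to 0.39 for DPT. Probe sets called at 8 h against untreated numbered 894, and 2200 with the block over 9 P2 arrays, 519 on the 2 groups alone, 265 without the P2 arrays numbered 3 and 364 to 702 without 1 array. At 24 h against untreated they numbered 1498, and 3519 with that block, 631 on the 2 groups, 762 without those arrays and 800 to 1347 without 1 array. Between 24 h and 8 h they numbered 41, and 430 with that block, 0 on the 2 groups in limma (1532 at an unadjusted p under 0.05), 12 without those arrays, 4 to 44 without 1 array, 25 with no filter, 109 with the block over 12 arrays, 72 with trend and robust moderation and 23 with values raised to the control level. Counting all probe sets of a gene, those called between untreated P2 and P0 numbered 5 higher among matrix partners (0 by gene), 8 lower among proteases and inhibitors (5 by gene), 4 lower among receptors (2 by gene) and 9 lower among TGF-β targets (4 by gene). TGF-β targets then had 8 called higher at each time (4 by gene), and matrix partners 1 higher at 8 h (0 by gene). Of the fits on other named genes, 28 lost and 9 gained a call under alternatives other than leaving out 1 array, and 0 reversed. A mean over probe sets was not run for the 4 genes, since each has 1. Signal near or under the control level limits COL3A1, HTRA4, MX2 and ACAN in P2 cells, LIF in untreated P2 cells and ITGA8 in P0 cells.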
